A study of Homo sapiens with 18 samples.

Results

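The MYC, MAX and MXD network is described here through 10 genes, taken by symbol from the deposited tables: MYC, MYCN, MAX, MXD1, MXD3, MXD4, MXI1, MNT, MGA and MLX. All 10 symbols were found among the 23686 symbols of the tables. The network was selected on the measured values of MYC, which had been seen to move in opposite directions in the 2 cell lines of the series, so the values of MYC below are a description and carry no test. RNA was measured by paired-end sequencing of ribosomal-RNA-depleted libraries from OCI-Ly1 and TMD8, established cell lines from human diffuse large B-cell lymphoma. JIB-04 is a small molecule that inhibits Jumonji-domain histone demethylases. Each line was treated with the vehicle, 0.01% DMSO, or with JIB-04 at a low dose of 150 nM or a high dose of 500 nM, and 3 libraries were made per group, 18 in all. The medium was IMDM for OCI-Ly1 and RPMI for TMD8, so a difference between lines cannot be told apart from a difference between media. Genotype and treatment time are not given in the sources used here. Each line stands for itself alone, and the libraries of a group were technical triplicates, so every p-value measures only the spread between these libraries.

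MYC is a transcription factor that drives growth genes, and it can bind DNA only as a dimer with MAX. The sites it prefers are E-boxes, with the letters CACGTG. The MXD proteins (MXD1, MXD3, MXD4 and MXI1, which is also called MXD2) and MNT compete with MYC for MAX and bring SIN3 and histone deacetylases to the same sites, which lowers transcription. MLX is a MAX-like protein that pairs with MXD1, MXD4 and MNT and with the nutrient-sensing factors MondoA and ChREBP. MGA is a large MAX partner that holds together a Polycomb complex called PRC1.6. MYCN is a paralogue of MYC that is best known from neuroblastoma. In germinal-centre and activated B cells MYC marks cells that are about to divide, and MYC is often deregulated in diffuse large B-cell lymphoma.

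The OCI-Ly1 libraries held 17579732 to 32651115 estimated counts and the TMD8 libraries 9550092 to 20509500. All 6 B-cell markers listed had a mean of at least 1 TPM (transcripts per 1000000) in every group. The activated B-cell type markers summed to 207 to 208 TPM with DMSO, 217 to 225 at 150 nM and 390 to 416 at 500 nM in OCI-Ly1. In TMD8 they summed to 952 to 1170, 743 to 837 and 567 to 659 TPM. The B-cell marker sum also fell in TMD8, from 801 to 933 TPM with DMSO to 538 to 618 at 500 nM. In the edgeR test described below, 5 of 6 activated-type markers were higher at 500 nM in OCI-Ly1, beside 27.7% of all genes. In TMD8 2 of 7 were higher and 4 lower, beside 29.9% and 30.7% of all genes, with a median log2 fold change of -0.14. The germinal-centre type markers summed to 193 to 231 TPM in OCI-Ly1 libraries, and in TMD8 to 46.6 to 55.8 with DMSO and 25.5 to 27.8 at 500 nM. LMO2 and SERPINA9 of the germinal-centre list went against this split, with 25.1 and 9.26 TPM in untreated TMD8 and 0.0113 and 0.1 in untreated OCI-Ly1. LMO2 and SERPINA9 fell to 6.93 and 2.12 TPM in TMD8 at 500 nM. There BCL6 went from 9.48 to 9.39 TPM, MYBL1 from 0.885 to 0.95 and S1PR2 from 5.52 to 7.09. The lower sum thus did not hold for the whole list. With edgeR, 3 of 5 germinal-centre type markers were higher and 2 lower in TMD8 at 500 nM. In OCI-Ly1 1 of 5 was higher and 2 were lower at that dose. The 4 T-cell markers found summed to 26.6 to 29.4 TPM with DMSO, 19.3 to 22.7 at 150 nM and 12.2 to 14.1 at 500 nM in OCI-Ly1, carried by CD3D and CD3G. They summed to 1.48 to 2.13 TPM in TMD8, where CD3E was at 0. Myeloid markers stayed between 2.26 and 11 TPM and stromal and epithelial ones between 2.1 and 8.97, with S100A9 at 0 in all libraries. The part of these marker levels in the results was not tested. These are bulk samples of cell lines, in which fewer cells with a marker and less of its RNA per cell cannot be told apart.

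MYC was the most abundant member by TPM in every group. Normalised read counts are given below as CPM (counts per 1000000) after TMM scaling, which removes depth and composition differences between the libraries of a line. In OCI-Ly1 the libraries held 332, 313 and 302 CPM of MYC with DMSO, 300.0, 293 and 303 under the low dose, and 399, 408 and 390 under the high dose. All 3 libraries at 500 nM lay above all others, while those at 150 nM overlapped those with DMSO. In TMD8 the libraries held 367, 340.0 and 337 CPM with DMSO, 242, 221 and 210 under the low dose, and 151, 155 and 160.0 under the high dose. There the 3 groups did not overlap, and each dose lay below the one before. The log2 fold changes against DMSO were -0.078 (standard error 0.05) under the low dose and 0.34 (0.05) under the high dose for OCI-Ly1, and -0.64 (0.05) and -1.16 (0.06) for TMD8. At 500 nM MYC RNA thus stood at 1.26 times its DMSO level in OCI-Ly1 and at 0.447 times in TMD8. On log2(TPM + 1) the changes at 500 nM were 0.48 and -1.51, and after centring that scale on each library's median 0.25 and -1.26.

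**Figure D1:**
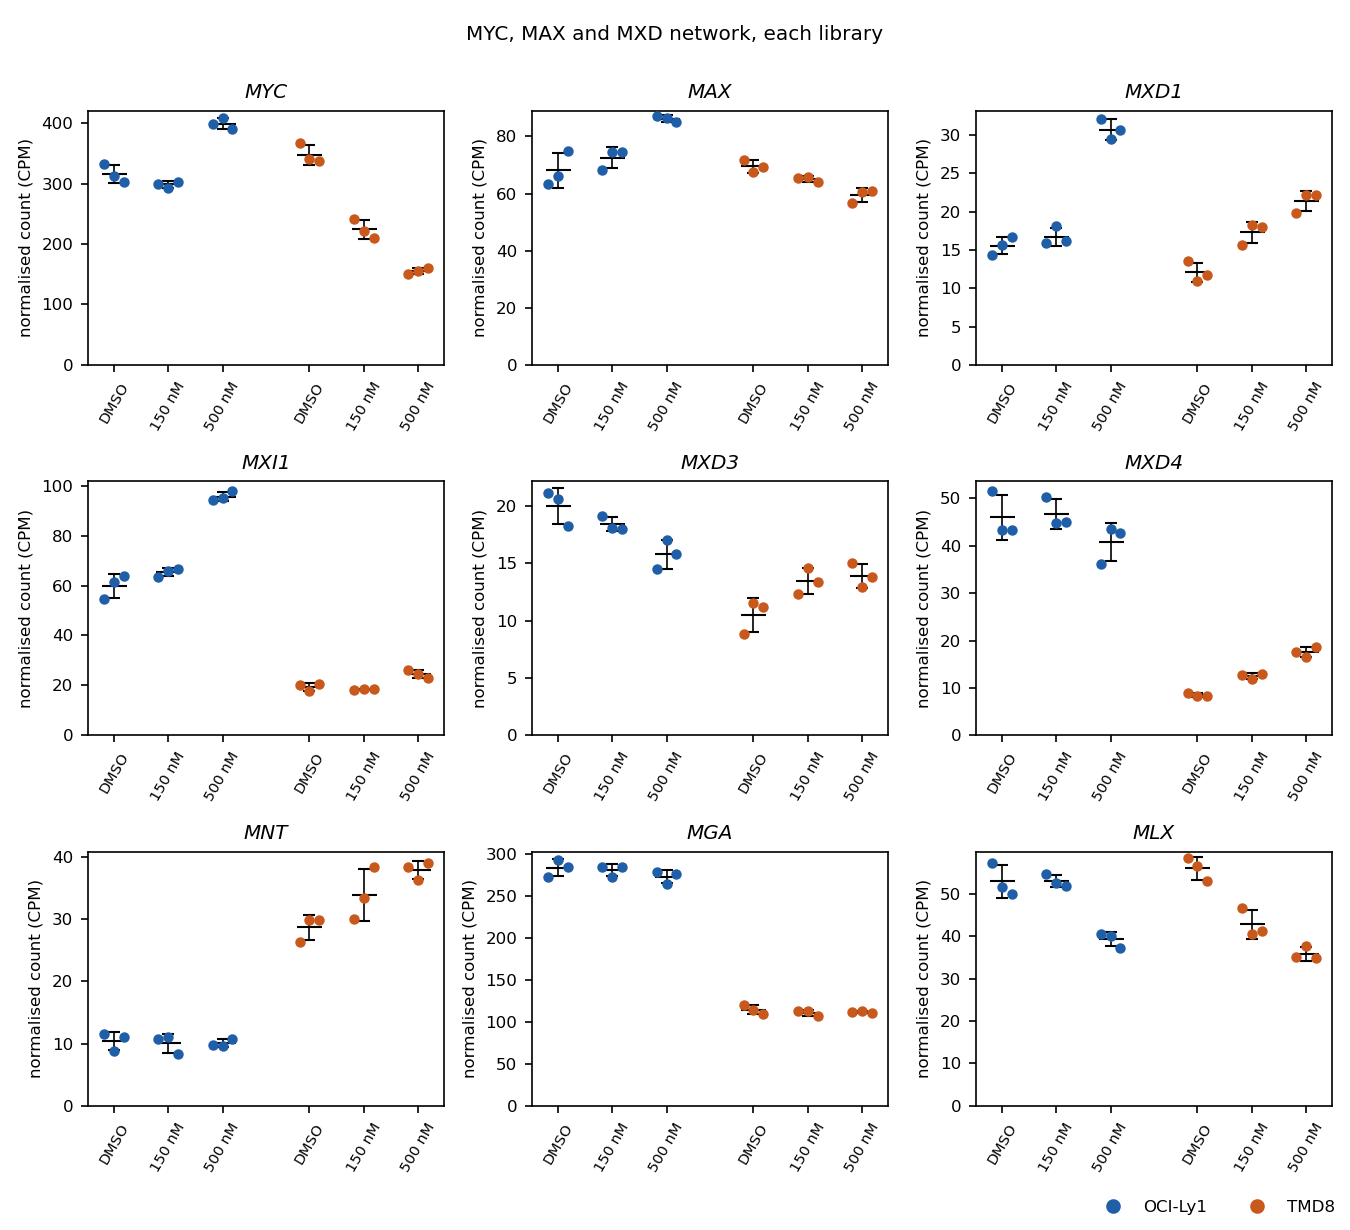
Normalised read counts (CPM, linear axes from 0) of the 9 members above the low-count filter in each library, by dose and line; points are libraries, bars mean ± SD of 3. MYC stood at 390 to 408 CPM at 500 nM in OCI-Ly1 and at 151 to 160.0 in TMD8, from 302 to 332 and 337 to 367 with DMSO.

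MYCN was close to silent. It had 0 counts in all 9 OCI-Ly1 libraries and in 7 of the 9 TMD8 libraries, and 1 count in 1 TMD8 library of each dose. A library with 0 counts allows up to 3 counts, which was between 0.0919 and 0.314 CPM at these depths and covers counting error only. MYCN lay under the low-count filter in both lines and no fold change is given. The other 9 members passed the filter in every fit, with at least 135 estimated counts in every library.

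MAX, the shared partner, was higher at 500 nM in OCI-Ly1 and lower in TMD8. In OCI-Ly1 its libraries held 63.3, 66.1 and 75 CPM with DMSO, 68.4, 74.7 and 74.6 under the low dose, and 87.3, 86.6 and 84.9 under the high dose. In TMD8 they held 71.8, 67.4 and 69.3 CPM with DMSO, 65.3, 65.9 and 64 under the low dose, and 56.7, 60.7 and 61 under the high dose. The libraries at 500 nM lay above all DMSO libraries in OCI-Ly1 and below all of them in TMD8. On the log2 scale MAX rose by 0.34 in OCI-Ly1 (standard error 0.07, edgeR adjusted p = 3.0e-04) and fell by 0.23 in TMD8 (0.05, edgeR adjusted p = 0.001). The responses differed between the lines, by 0.60 (standard error 0.08, edgeR adjusted p = 2.6e-06). At 150 nM MAX passed the test in neither line, with log2 fold changes of 0.09 in OCI-Ly1 (edgeR adjusted p = 0.69) and -0.095 in TMD8 (edgeR adjusted p = 0.14).

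Among the MAX-binding antagonists, MXD1 rose in both lines. In OCI-Ly1 its libraries held 14.4, 15.6 and 16.7 CPM with DMSO, 15.9, 18.1 and 16.1 under the low dose, and 32.1, 29.4 and 30.6 under the high dose. In TMD8 they held 13.5, 11 and 11.7 CPM with DMSO, 15.7, 18.2 and 18 under the low dose, and 19.8, 22.1 and 22.2 under the high dose. The OCI-Ly1 libraries overlapped the DMSO range under the low dose and left it under the high dose, while the TMD8 libraries had left the DMSO range at 150 nM. The log2 fold changes at 500 nM were 0.98 in OCI-Ly1 (standard error 0.08, edgeR adjusted p = 2.7e-08) and 0.83 in TMD8 (0.10, edgeR adjusted p = 6.7e-07). Their difference was 0.19 (standard error 0.13) and did not pass the test (edgeR adjusted p = 0.26), but it was 0.65 on log2(TPM + 1) and passed there (limma adjusted p = 2.7e-04). At 150 nM MXD1 rose in TMD8 by 0.53 (edgeR adjusted p = 2.1e-04), a call lost on log2(TPM + 1) (0.23, limma adjusted p = 0.078), and the value in OCI-Ly1 was 0.10 (edgeR adjusted p = 0.74). That difference of -0.42 passed the test (edgeR adjusted p = 0.024), but not on the TPM scales (-0.12 on log2(TPM + 1), -0.22 on log2(TPM + 0.1) and -0.24 after centring) nor without any 1 of 6 libraries. Those were the third DMSO and 150 nM libraries of OCI-Ly1 and the second and the third DMSO and 150 nM libraries of TMD8, with values from -0.39 to -0.35 and adjusted p from 0.054 to 0.077.

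MXI1 had the second largest rise of the members in OCI-Ly1. Its libraries there held 54.6, 61.3 and 64 CPM with DMSO, 63.5, 65.8 and 66.8 under the low dose, and 94.1, 94.9 and 97.8 under the high dose, where all stood clear of the rest. In TMD8 they held 20, 17.7 and 20.5 CPM with DMSO, 18.3, 18.4 and 18.7 under the low dose, and 26, 24.4 and 22.8 under the high dose. At 500 nM MXI1 rose by 0.67 in OCI-Ly1 (standard error 0.06, edgeR adjusted p = 7.3e-08) and by 0.34 in TMD8 (0.08, edgeR adjusted p = 0.0012), and the rises differed by 0.37 (edgeR adjusted p = 0.0036). Its TMD8 value was -0.038 on log2(TPM + 1) (limma adjusted p = 0.75).

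MXD3 and MXD4 each responded differently in the 2 lines. MXD3 libraries held 21.1, 20.6 and 18.2 CPM with DMSO, 19.1, 18.1 and 18 under the low dose, and 14.5, 17 and 15.8 under the high dose in OCI-Ly1. In TMD8 they held 8.82, 11.5 and 11.2 CPM with DMSO, 12.3, 14.6 and 13.4 under the low dose, and 15, 12.9 and 13.8 under the high dose. At 500 nM all libraries lay below the DMSO range in OCI-Ly1 and above it in TMD8. MXD3 fell by 0.34 in OCI-Ly1 (standard error 0.09, edgeR adjusted p = 0.0036) but rose by 0.40 in TMD8 (0.11, edgeR adjusted p = 0.005), a difference of -0.71 (0.15, edgeR adjusted p = 2.8e-04). Under the low dose it rose in TMD8 by 0.35 (edgeR adjusted p = 0.015), a call lost without the first DMSO library (0.24) or the second 150 nM library (0.29). The difference at that dose, -0.46 (edgeR adjusted p = 0.023), was lost without the first OCI-Ly1 DMSO library (-0.40), the first TMD8 DMSO library (-0.35) or the second TMD8 library at 150 nM (-0.39). None of these MXD3 values passed the test on log2(TPM + 1). At 500 nM they were -0.16 in OCI-Ly1, 0.041 in TMD8 and -0.20 for the difference (limma adjusted p = 0.11, 0.71 and 0.10), and at 150 nM 0.20 in TMD8 and -0.24 for the difference (limma adjusted p = 0.088 and 0.10). On the centred scale all 5 calls were kept.

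MXD4 had the largest rise of any member in TMD8. Its TMD8 libraries held 9.02, 8.35 and 8.35 CPM with DMSO, 12.8, 11.9 and 13 under the low dose, and 17.7, 16.6 and 18.6 under the high dose, so that the 3 groups did not overlap. Its OCI-Ly1 libraries held 51.5, 43.3 and 43.3 CPM with DMSO, 50.3, 44.8 and 45.1 under the low dose, and 36.1, 43.5 and 42.7 under the high dose, with overlap between DMSO and either dose. MXD4 rose in TMD8 by 0.56 at 150 nM (standard error 0.09, edgeR adjusted p = 1.0e-04) and 1.04 at 500 nM (0.09, edgeR adjusted p = 2.4e-08). The values in OCI-Ly1 were 0.02 (edgeR adjusted p = 0.96) and -0.18 (edgeR adjusted p = 0.084). The latter passed with no low-count filter (-0.19, edgeR adjusted p = 0.038) and on the centred TPM scale (-0.26, limma adjusted p = 0.029). It also passed without the third DMSO library (-0.23). The step from 150 nM to 500 nM in OCI-Ly1 (-0.20, edgeR adjusted p = 0.063) likewise passed under other settings, among them DESeq2 (-0.21) and the centred scale (-0.28). The responses differed by -0.53 at 150 nM (edgeR adjusted p = 0.0055) and by -1.19 at 500 nM (edgeR adjusted p = 8.5e-08). The difference at 150 nM was -0.21 on log2(TPM + 1) and did not pass (limma adjusted p = 0.30).

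MNT, the antagonist that most tissues express whether or not cells divide, rose in TMD8. Its libraries there held 26.3, 29.9 and 29.8 CPM with DMSO, 30.0, 33.4 and 38.3 under the low dose, and 38.3, 36.2 and 39 under the high dose. In OCI-Ly1 they held 11.6, 8.86 and 11 CPM with DMSO, 10.8, 11.1 and 8.3 under the low dose, and 9.83, 9.6 and 10.8 under the high dose, with overlap throughout. The TMD8 rises were 0.25 at 150 nM (standard error 0.08, edgeR adjusted p = 0.021) and 0.40 at 500 nM (0.08, edgeR adjusted p = 5.1e-04), and the OCI-Ly1 values -0.062 (edgeR adjusted p = 0.92) and -0.066 (edgeR adjusted p = 0.69). The difference of -0.44 at 500 nM passed the test (edgeR adjusted p = 0.02). It was 0.043 on log2(TPM + 1) (limma adjusted p = 0.81), -0.35 without the first OCI-Ly1 DMSO library and -0.38 without the first TMD8 DMSO library (edgeR adjusted p = 0.076 and 0.051). Both TMD8 rises were lost on log2(TPM + 1), with 0.07 at 150 nM and 0.022 at 500 nM (limma adjusted p = 0.62 and 0.86). The rise at 150 nM also missed the threshold without the first DMSO library or without the last 150 nM library (0.19 and 0.17), and on the centred TPM scale (0.17).

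MLX fell in both lines. In OCI-Ly1 its libraries held 57.2, 51.6 and 49.8 CPM with DMSO, 54.6, 52.4 and 51.9 under the low dose, and 40.5, 40.1 and 37.3 under the high dose. In TMD8 they held 58.3, 56.6 and 53 CPM with DMSO, 46.7, 40.6 and 41.1 under the low dose, and 35, 37.7 and 34.8 under the high dose. The treated libraries lay below the DMSO range at both doses in TMD8 and at 500 nM alone in OCI-Ly1. At 500 nM MLX fell by 0.43 in OCI-Ly1 (standard error 0.07, edgeR adjusted p = 3.6e-05) and by 0.64 in TMD8 (0.07, edgeR adjusted p = 2.2e-07). The difference at 150 nM was 0.40 (0.10, edgeR adjusted p = 0.0036). The difference at 500 nM was 0.24 (0.10, edgeR adjusted p = 0.047), close to the threshold. It missed the threshold with library size as the only scaling and on the centred TPM scale (0.20 and 0.21), and without any 1 of 8 of the 12 libraries compared (all but the first DMSO and the third 500 nM libraries of OCI-Ly1 and the third DMSO and second 500 nM libraries of TMD8), where it was 0.20 to 0.24.

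MGA passed the test in neither line at either dose. Its libraries held 273, 293 and 285 CPM with DMSO and 279, 265 and 276 at 500 nM in OCI-Ly1, and 120.0, 114 and 110.0 with DMSO and 112, 113 and 111 at 500 nM in TMD8. The groups overlapped, with log2 fold changes of -0.054 (standard error 0.05, edgeR adjusted p = 0.35) and -0.028 (0.05, edgeR adjusted p = 0.63). The difference between lines was 0.0049 (standard error 0.07, edgeR adjusted p = 0.98). On log2(TPM + 1) the TMD8 value was -0.35 (limma adjusted p = 0.0058) and the difference 0.43 (limma adjusted p = 0.0017), whereas on the centred scale the OCI-Ly1 value was -0.15 (limma adjusted p = 0.027).

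Counted over the 8 members other than MYC that passed the filter, 0 were called at 150 nM in OCI-Ly1, where 0.889% of all tested genes were called, and 0 had groups without overlap, against 14% of all genes. At 500 nM in OCI-Ly1, 5 of 8 were called (MAX, MXD1 and MXI1 higher, MXD3 and MLX lower) against 53.6% of all genes, and 5 of 8 had no overlap against 60.7%. Raising the dose from 150 nM to 500 nM in OCI-Ly1 called the same 5 members in the same directions, where 46.2% of all genes were called, and 6 of 8 had no overlap against 55.6%. The MXD3 call in that step (log2 fold change -0.23, edgeR adjusted p = 0.044) was lost when library size alone set the scaling (-0.15), on log2(TPM + 1) (-0.12) and without any 1 of the 3 libraries at 150 nM or of the first or the third at 500 nM. In TMD8, 5 of 8 were called at 150 nM (MXD1, MXD3, MXD4 and MNT higher, MLX lower) against 44.2% of all genes, and 7 of 8 at 500 nM (MXD1, MXD3, MXD4, MXI1 and MNT higher, MAX and MLX lower) against 60.7%. At 150 nM in TMD8 6 of 8 had no overlap, against 51.4%, and at 500 nM 7 of 8, against 66.4%. The step from 150 nM to 500 nM in TMD8 called 4 of 8 (MXD1, MXD4 and MXI1 higher, MLX lower) against 28.7%, and 5 of 8 had no overlap against 44.8%. In that step the MXD1 call (0.30) was lost with DESeq2 (0.29), without the first 150 nM library (0.24) and without the second or the third 500 nM library (0.27), and the MLX call (-0.25) without the first library of either dose (-0.19 and -0.23). None of the 3 rises of that step passed on log2(TPM + 1), with 0.06 for MXD1, 0.19 for MXD4 and 0.13 for MXI1, while MAX (-0.31) and MLX were called lower. The difference between lines called 4 of 8 at 150 nM, against 23.3% of all genes, and 6 of 8 at 500 nM, against 46.4%. The median log2 fold change of the 8 members at 500 nM was -0.06 in OCI-Ly1, beside -0.0033 over all genes, and 0.37 in TMD8, beside 0.041.

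**Figure D2:**
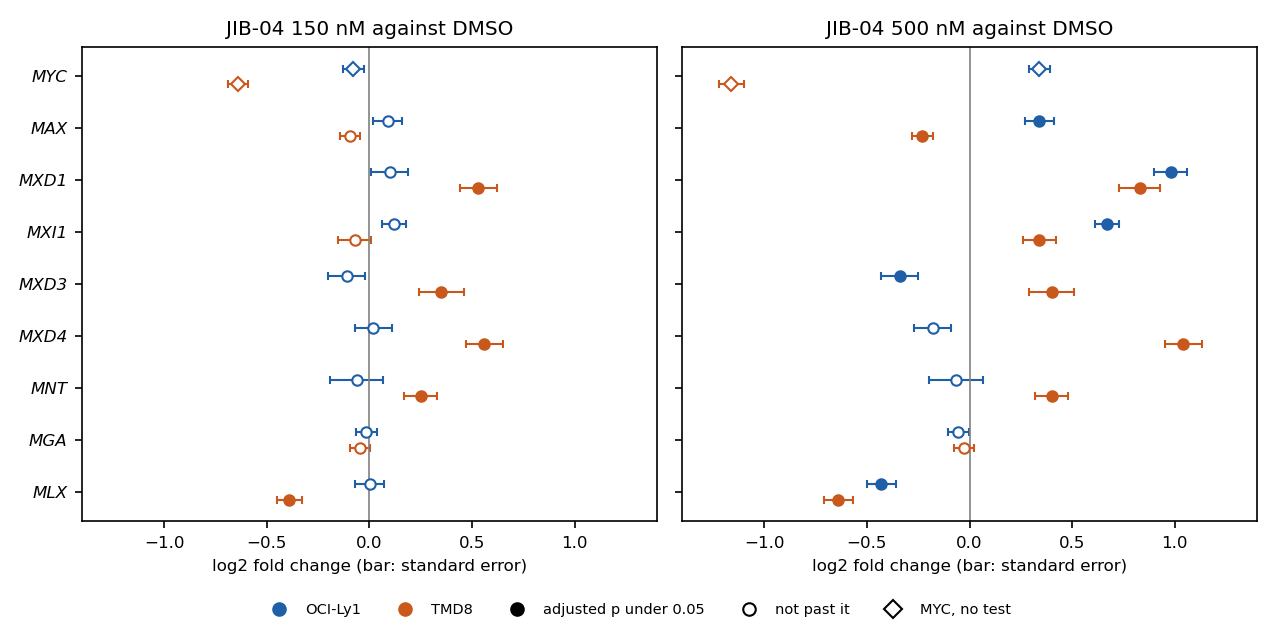
Log2 fold change against DMSO of the 9 members at 150 nM and 500 nM; bars are standard errors, filled points passed edgeR's test at an adjusted p under 0.05, and MYC carries no test. All 5 MXD-type antagonists lay above 0 in TMD8 at 500 nM, from 0.34 to 1.04, while in OCI-Ly1 they ran from -0.34 to 0.98; on log2(TPM + 1) the TMD8 rises of MXI1 (-0.038), MNT (0.022) and MXD3 (0.041) did not pass the test.

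The calls moved with the scale, most of all in TMD8. Of the 36 calls of members over these 8 comparisons, 16 were lost on log2(TPM + 1) and 5 others gained, against 4 and 6 after centring that scale. On both TPM scales without centring 2 of 8 members were called at 150 nM, and without the first DMSO library 3 were. A TPM value is a share of its library. MIR3687 held the largest share in every TMD8 library, with 16.1 to 17.3% at DMSO, 15.2 to 20.6% at 150 nM and 19.1 to 24.3% at 500 nM. RPPH1 held the largest share in every OCI-Ly1 library, with 6.88 to 7.63% at DMSO and 9.7 to 10.6% at 500 nM. The part of these shares in the lost calls was not tested. On log2(TPM + 1) the median of all genes in TMD8 at 500 nM was -0.22, against 0.041 after TMM scaling. The log2(TPM + 1) values above that are not called centred were not corrected for this shift. In OCI-Ly1 the median was 0.10 on log2(TPM + 1) and -0.12 after centring, against -0.0033.

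Because TPM is scaled for gene length, it allows the members to be ranked and set against each other within a library. In untreated OCI-Ly1 the order was MYC (177 ± 7.02 TPM, SD, n = 3), MAX (48.6 ± 5.36), MGA (30.1 ± 1.26), MLX (29.3 ± 1.82), MXI1 (23.2 ± 2.29), MXD3 (16.3 ± 0.734), MXD4 (15.8 ± 1.57), MXD1 (3.53 ± 0.333), MNT (2.78 ± 0.415) and MYCN (0). Of these neighbours, MGA and MLX overlapped, as did MXD3 and MXD4. In untreated TMD8 it was MYC (109 ± 14.7), MAX (28.3 ± 3.47), MLX (17.2 ± 2.25), MGA (6.72 ± 0.871), MXD3 (5 ± 0.192), MNT (4.2 ± 0.0779), MXI1 (4.15 ± 0.544), MXD4 (1.64 ± 0.218), MXD1 (1.53 ± 0.296) and MYCN (0). There MNT and MXI1 overlapped, as did MXD4 and MXD1. The 2 lines' tables were made separately, so these TPM levels are set side by side across lines without a test.

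Ratios within a library do not depend on its scaling. MYC per MAX in OCI-Ly1 was 3.67 ± 0.444 with DMSO, 3.29 ± 0.175 under the low dose and 3.76 ± 0.0757 under the high dose, and 3.85 ± 0.0493, 2.66 ± 0.231 and 1.98 ± 0.0473 in TMD8. The DMSO libraries of both lines overlapped in this ratio, and only the TMD8 groups separated by dose, without overlap between them. The summed TPM of MXD1, MXD3, MXD4, MXI1 and MNT per MAX, a ratio that does not involve MYC, was 1.27 ± 0.108, 1.24 ± 0.0794 and 1.24 ± 0.0529 in OCI-Ly1. In TMD8 it was 0.588 ± 0.0405, 0.762 ± 0.032 and 0.964 ± 0.0673, again without overlap. On the TPM scale the antagonist sum in TMD8 was 16.5 ± 0.872, 18.1 ± 0.987 and 18.2 ± 0.987, while MAX went from 28.3 to 23.7 and 18.9. On this scale the TMD8 ratio thus rose mostly through lower MAX. In OCI-Ly1 the sum was 61.5 ± 1.81, 64.6 ± 0.416 and 81.3 ± 5.34, and MAX rose beside it, from 48.6 to 52.3 and 65.6. Unlike the ratios, these TPM levels depend on the scaling. After TMM scaling the log2 fold change of MAX in TMD8 at 500 nM was -0.23. Those of the 5 antagonists were 0.34 to 1.04, so the parts of MAX and of the antagonists in the TMD8 ratio depend on the scale. MYC per summed antagonist went from 6.58 ± 0.534 to 3.50 ± 0.447 and 2.06 ± 0.0987 in TMD8 and was 2.87 ± 0.12, 2.66 ± 0.0723 and 3.04 ± 0.131 in OCI-Ly1. At 500 nM the TMD8 libraries thus stood at 1.95 to 2.13, below every OCI-Ly1 library (2.61 to 3.16), after starting above them at 6.15 to 7.18.

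**Figure D3:**
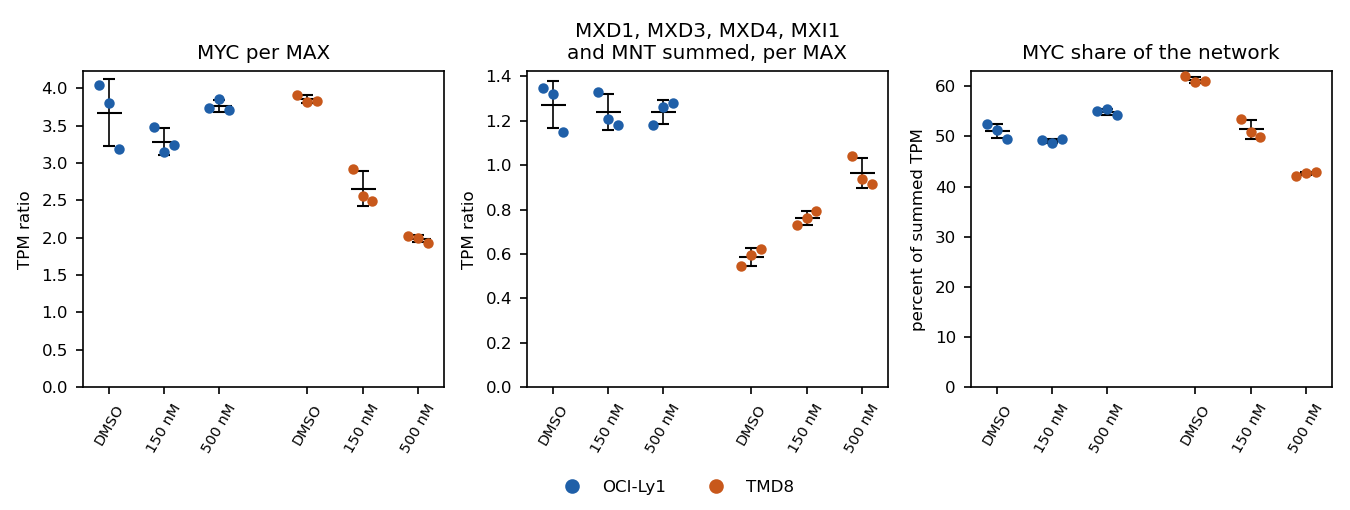
TPM ratios within each library: MYC per MAX, the 5 antagonists summed per MAX, and MYC as a percent of the summed TPM of all 10 members; points are libraries, bars mean ± SD of 3, axes start at 0. The MYC share went from 61.3% to 51.4% and 42.6% with dose in TMD8 and was 51.1%, 49.2% and 54.9% in OCI-Ly1.

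The start-site sequences of 3 members are shown because they hold the E-box, the letters that MYC and MAX, MXD and MAX, and MLX dimers all bind, in members that changed in TMD8. RefSeq start windows on GRCh38.p14 were matched by symbol for 9 members, and the 250 bases before the start were searched for CACGTG, which reads the same on both strands. MXD4, MNT and MLX held it, beginning 238, 193 and 50 bases before the start, and no CACGTG was in the windows of the other 6 (MYCN, MAX, MXD1, MXD3, MXI1 and MGA). In all, 6.34% of 35116 windows and 7.73% of 27305 genes held it, as did 11.1% of the 9985 genes tested in both lines that had a window. Capitals mark the E-box, and each sequence runs 5′ to 3′ on the gene's strand.
MXD4, chr4:2262110-2262359, minus strand: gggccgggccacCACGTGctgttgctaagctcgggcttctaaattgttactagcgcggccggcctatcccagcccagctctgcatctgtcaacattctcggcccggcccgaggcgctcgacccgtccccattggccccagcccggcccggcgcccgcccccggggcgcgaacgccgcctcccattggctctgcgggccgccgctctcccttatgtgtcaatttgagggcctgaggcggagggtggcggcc
MNT, chr17:2401061-2401310, minus strand: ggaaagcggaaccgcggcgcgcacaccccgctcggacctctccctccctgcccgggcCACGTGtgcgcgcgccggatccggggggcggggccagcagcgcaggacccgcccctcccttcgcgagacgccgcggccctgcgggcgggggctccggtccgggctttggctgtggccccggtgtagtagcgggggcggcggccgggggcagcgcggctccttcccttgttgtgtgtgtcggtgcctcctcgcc
MLX, chr17:42566850-42567099, plus strand: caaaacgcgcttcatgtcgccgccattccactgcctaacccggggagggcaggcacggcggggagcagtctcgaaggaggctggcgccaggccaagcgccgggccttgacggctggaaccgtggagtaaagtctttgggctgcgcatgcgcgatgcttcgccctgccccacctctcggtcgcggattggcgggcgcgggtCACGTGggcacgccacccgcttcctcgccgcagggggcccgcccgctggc
MXD4 and MNT rose in TMD8 and were not called in OCI-Ly1, though MXD4 passed there as lower under some other settings. MLX fell in both lines, so members with these letters moved in different directions. A match is a description of the sequence and does not show binding.

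MYC-induced targets, a list of 45 genes that MYC is known to activate in many cell types (ribosome biogenesis, translation, nucleotide and polyamine synthesis, glycolysis, mitochondrial chaperones), fell in both lines. In OCI-Ly1 at 500 nM, 35 of 44 tested were lower and 3 higher, with a median log2 fold change of -0.32 beside -0.0033 over all genes, of which 25.9% were called lower. In TMD8 43 of 45 were lower and 1 higher, with a median of -0.80 beside 0.041, and 30.7% of all genes were called lower. At 150 nM, 2 of 44 were lower in OCI-Ly1 (LDHA and ENO1, named after their values were seen) and 41 of 45 in TMD8, beside 0.141% and 25% of all genes. Of the 44 targets tested in both lines, 35 were called lower in both at 500 nM (79.5%), beside 13.7% of 14483 genes. The OCI-Ly1 count at 500 nM was 22 lower and 5 higher on log2(TPM + 1). On that scale 5739 of the 15638 genes tested were higher at 500 nM in OCI-Ly1 and 2240 lower. In TMD8 1751 of 15363 were higher and 7581 lower. Counts on log2(TPM + 1) in the lists below are to be read against these numbers.

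LDHA, the lactate dehydrogenase subunit of aerobic glycolysis, went down from 908 ± 90.7 to 442 ± 12.5 CPM in OCI-Ly1 (log2 fold change -1.04 with SE 0.06, edgeR adjusted p = 9.8e-11) and from 1010 ± 33 to 402 ± 4.79 in TMD8 (-1.33 with SE 0.07, edgeR adjusted p = 1.6e-11). HSPE1, the mitochondrial co-chaperonin, went down from 270.0 ± 16.5 to 149 ± 4.89 CPM in OCI-Ly1, and in TMD8 from 116 ± 6.5 to 52.3 ± 1.13. LDHA and HSPE1 RNA thus fell in OCI-Ly1 beside higher MYC RNA at 500 nM. SLC19A1, the folate carrier, fell from 49.2 ± 2.7 to 20.6 ± 1.35 CPM in TMD8 (-1.26, edgeR adjusted p = 1.5e-09) and was at 10.7 ± 0.894 and 11.7 ± 0.596 in OCI-Ly1 (0.12, edgeR adjusted p = 0.41). The 3 targets higher in OCI-Ly1 were SHMT2, TFRC and TERT. SHMT2, which makes one-carbon units in mitochondria, rose from 456 ± 6.13 to 818 ± 36.2 CPM (0.84, edgeR adjusted p = 1.5e-10) and was at 221 ± 3.52 and 215 ± 0.844 in TMD8 (-0.036, edgeR adjusted p = 0.48). SHMT2 was called lower in TMD8 on log2(TPM + 1) (-0.40, limma adjusted p = 0.0016) and on the centred scale (-0.15, limma adjusted p = 0.006). TFRC, the transferrin receptor, rose in both lines, by 0.53 (edgeR adjusted p = 2.2e-08) and 0.34 (edgeR adjusted p = 4.3e-05), though on log2(TPM + 1) its TMD8 value was -0.042. TERT, the telomerase subunit, named after its values were seen, was the single target called in opposite directions, 0.48 in OCI-Ly1 and -0.22 in TMD8 (edgeR adjusted p = 7.4e-05 and 0.0053).

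Line by line, the fall of the targets was larger in TMD8. At 500 nM the OCI-Ly1 change minus the TMD8 change was called higher for 41 of 45 targets and lower for 1 (APEX1, -0.29, named after its value was seen), with a median of 0.51 beside 0.049 over all genes, of which 28.2% were called higher. The fitted change was lower in TMD8 for 42 of 44 targets (95.5%), beside 52.8% of all genes tested in both. The MYC difference was 1.53, but it chose the network and was not tested, so it is no separate result beside that of the targets.

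**Figure D4:**
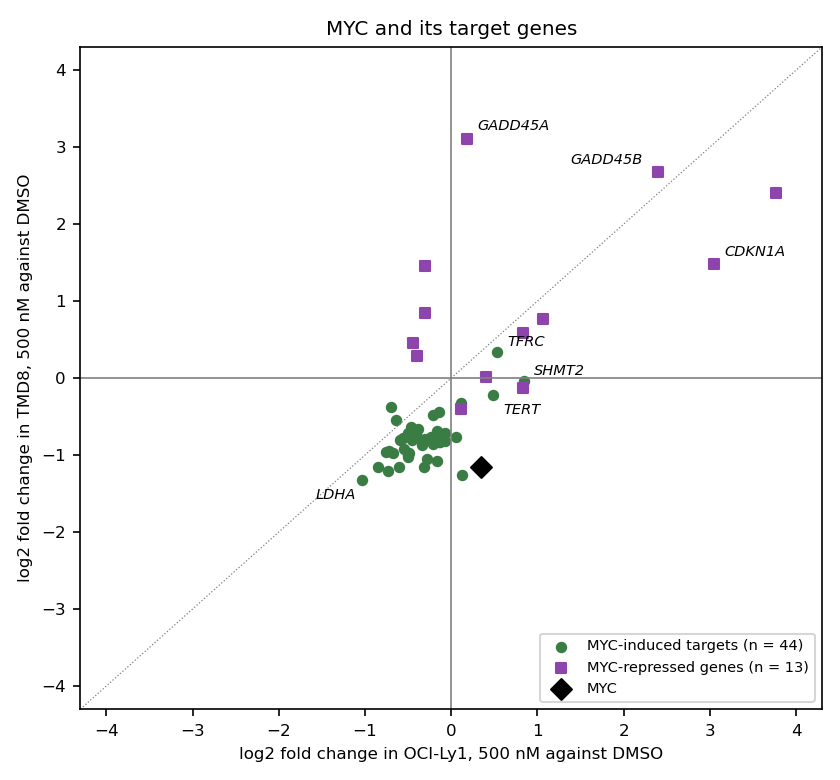
Log2 fold change at 500 nM against DMSO in OCI-Ly1 (x) and TMD8 (y) of the MYC-induced targets, the MYC-repressed genes and MYC; the dotted line marks equal change. Most MYC-induced targets lie where both values are below 0, 35 of 44 called lower in both, while MYC lies at 0.34 and -1.16.

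MYC-repressed genes are a list of genes described as held down by MYC, some of them together with its partner MIZ1 (ZBTB17). Of its 18 genes, 14 were tested in OCI-Ly1 and 16 in TMD8. At 500 nM, 8 were higher and 4 lower in OCI-Ly1 (median 0.61) and 12 higher and 2 lower in TMD8 (median 0.80). Higher genes were 27.7% and 29.9% of all genes in these comparisons, and lower ones 25.9% and 30.7%. The counts of lower genes were 2 in OCI-Ly1 and 4 in TMD8 on log2(TPM + 1), and 1 in TMD8 with library size as the only scaling or without the first or second 500 nM library. CDKN1A, the p21 inhibitor of cyclin-dependent kinases and also a p53 target, went up from 17.1 ± 0.759 to 142 ± 2.47 CPM in OCI-Ly1 (3.05 with SE 0.07, edgeR adjusted p = 5.3e-16) and from 77.7 ± 4.96 to 217 ± 5.83 in TMD8 (1.48 with SE 0.06, edgeR adjusted p = 2.4e-12). CDKN1A was also the single gene of the list called at 150 nM in OCI-Ly1 (1.16, edgeR adjusted p = 2.3e-08). GADD45A, a stress-response gene, rose in TMD8 from 3.21 ± 0.387 to 27.6 ± 0.682 CPM (3.11, edgeR adjusted p = 2.3e-12), and was at 49 ± 6.63 and 55.2 ± 1.91 in OCI-Ly1 (0.18, edgeR adjusted p = 0.078, but 0.32 on log2(TPM + 1) with limma adjusted p = 0.02, 0.26 when scaled by library size and 0.26 without the third DMSO library, all past the threshold). GADD45B rose in both, from 3.62 ± 1.19 to 18.6 ± 2.04 CPM and from 32.5 ± 1.52 to 208 ± 4.31. Among the 13 tested in both lines, 5 were higher in both (38.5%, beside 14.1% of 14483 genes). Another 4 were lower in OCI-Ly1 and higher in TMD8 (30.8%, beside 3.49%): BTG2, CDKN2C, SESN3 and CCNG2. SESN3 and CCNG2 were named after their values were seen. BTG2, an antiproliferative gene, went from 262 ± 18.2 to 194 ± 3.62 CPM in OCI-Ly1, and in TMD8 from 375 ± 8.6 to 515 ± 12.2. FTH1, the ferritin heavy chain, went the other way, with 0.83 in OCI-Ly1 and -0.13 in TMD8 (edgeR adjusted p = 3.4e-09 and 0.024). Its TMD8 call was lost with library size as the only scaling (-0.038) and without the first or second 500 nM library (-0.12 and -0.14), and those of BTG2 and CDKN2C on log2(TPM + 1) (0.082 and -0.057). KLF6, the other gene of the list called lower in TMD8 at 500 nM, fell there by 0.40 (edgeR adjusted p = 1.9e-06). At 150 nM it fell in TMD8 by 0.42 (edgeR adjusted p = 3.8e-06). In OCI-Ly1 at 500 nM KLF6 was not called (0.11, edgeR adjusted p = 0.32).

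PVT1, a long noncoding RNA gene that neighbours MYC, rose in both lines and so parted from MYC in TMD8. In OCI-Ly1 its libraries held 13.9, 13.6 and 12.9 CPM with DMSO, 16.1, 16.1 and 13.7 under the low dose, and 23.7, 21.8 and 22 under the high dose. In TMD8 they held 17.7, 15.4 and 16.5 CPM with DMSO, 30.4, 35.8 and 40.5 under the low dose, and 48.6, 50.8 and 50.5 under the high dose. All treated TMD8 libraries lay above the DMSO range, as did the 500 nM libraries of OCI-Ly1. The rises at 500 nM were 0.74 (SE 0.09, edgeR adjusted p = 1.7e-06) and 1.6 (SE 0.09, edgeR adjusted p = 8.6e-11), and they differed by -0.83 (edgeR adjusted p = 9.5e-06), or by -0.30 on log2(TPM + 1) (limma adjusted p = 0.073). Among the other 18 genes of the list of MYC gene regulators, FOXM1, a cell-cycle transcription factor, was at 101 ± 3.98 and 99.5 ± 3.84 CPM in OCI-Ly1 (-0.023, edgeR adjusted p = 0.75) and fell from 120.0 ± 7.03 to 76.6 ± 3 in TMD8 (-0.64, edgeR adjusted p = 1.2e-08). BRD3, a BET reader of acetylated histones, went up from 13.9 ± 0.917 to 23.2 ± 1.77 CPM in OCI-Ly1 (0.74, edgeR adjusted p = 7.7e-06) and from 47.2 ± 4.39 to 54.1 ± 1.28 in TMD8 (0.20, edgeR adjusted p = 0.014). BCL6, a germinal-centre repressor, rose from 46.3 ± 3.24 to 59.9 ± 1.94 in TMD8, where its value on log2(TPM + 1) was -0.0063. The list as a whole had 5 higher and 6 lower of 19 in OCI-Ly1, beside 5 higher and 12 lower in TMD8, with medians of -0.012 and -0.27. Over all genes 27.7% were higher and 25.9% lower in OCI-Ly1 and 29.9% and 30.7% in TMD8, so the OCI-Ly1 counts were near the background. The list had, on log2(TPM + 1), 3 lower in OCI-Ly1 and 1 higher in TMD8.

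**Figure D5:**
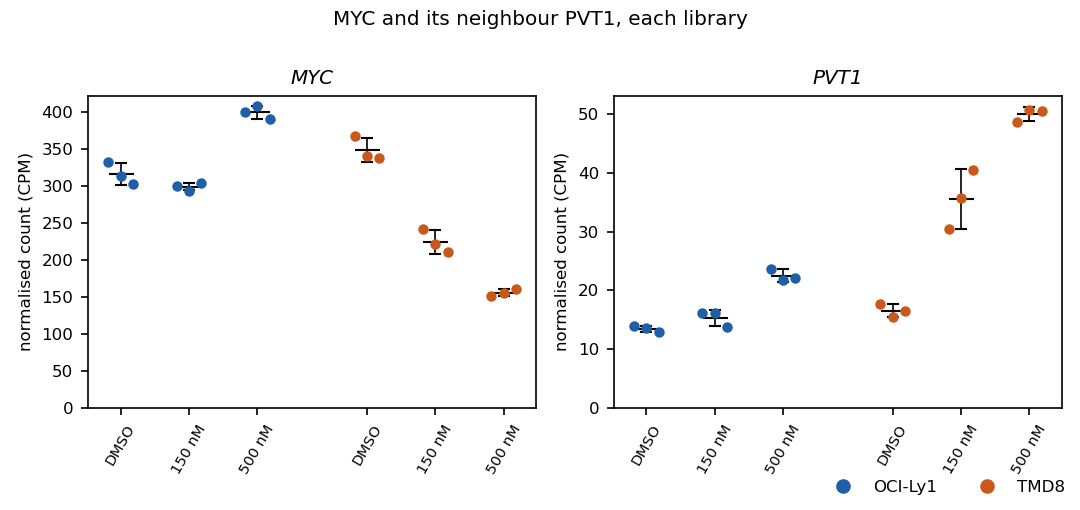
Normalised read counts (CPM, axes from 0) of MYC and PVT1 in each library; points are libraries, bars mean ± SD of 3. In TMD8 MYC went from 337 to 367 CPM with DMSO to 151 to 160.0 at 500 nM, while PVT1 went from 15.4 to 17.7 to 48.6 to 50.8.

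The cofactors and corepressors of the network were read from further lists. Of 17 MYC cofactors, 6 were higher and 5 lower in OCI-Ly1 at 500 nM, and 2 higher and 8 lower in TMD8, with medians of -0.017 and -0.12. The shares of all genes to read the edgeR counts of these lists against are again 27.7% higher and 25.9% lower in OCI-Ly1 and 29.9% and 30.7% in TMD8. Of the cofactors, 3 to 5 were higher in OCI-Ly1 when any 1 of the libraries compared was left out, with 3 without the second DMSO library. On log2(TPM + 1) 2 cofactors were lower in OCI-Ly1, where 2240 of 15638 genes were lower on that scale. In TMD8 15 were lower and 0 higher, where 7581 of 15363 genes were lower and 1751 higher. RUVBL1, an AAA+ helicase of chromatin-remodelling complexes, went down from 101 ± 0.659 to 68.9 ± 3.32 CPM in OCI-Ly1, and in TMD8 from 121 ± 1.72 to 61.1 ± 5.24. WDR5, which tethers MYC to chromatin, fell from 75.1 ± 4.9 to 44.3 ± 0.125 CPM in TMD8 (-0.76, edgeR adjusted p = 1.0e-08) and from 133 ± 4.69 to 116 ± 1.23 in OCI-Ly1 (-0.20, edgeR adjusted p = 0.0037). ZBTB17 (MIZ1) rose from 31 ± 1.84 to 50.9 ± 2.35 in OCI-Ly1 and was at 58.1 ± 2.85 and 62.5 ± 5.2 in TMD8 (0.11, edgeR adjusted p = 0.12). Of 15 genes of the SIN3 and histone deacetylase corepressor that the antagonists recruit, 2 were higher and 4 lower in OCI-Ly1, beside 4 higher and 9 lower in TMD8. The higher count in OCI-Ly1 was 4 without the third DMSO library or on log2(TPM + 1) and 6 with library size as the only scaling, and that in TMD8 was 1 on log2(TPM + 1). ING1, a histone-mark reader of that complex, rose from 44.1 ± 0.919 to 89.9 ± 3.31 CPM in TMD8 (1.03, edgeR adjusted p = 4.0e-10) and was at 24.1 ± 3.31 and 27.1 ± 1.07 in OCI-Ly1 (0.16, edgeR adjusted p = 0.13). HDAC2, a deacetylase, fell in both lines, by 0.74 in TMD8 (edgeR adjusted p = 6.9e-10) and by 0.27 in OCI-Ly1 (edgeR adjusted p = 3.2e-04). SIN3B, a scaffold of the complex, rose in both, by 0.50 in OCI-Ly1 (edgeR adjusted p = 1.6e-05) and by 0.32 in TMD8 (edgeR adjusted p = 3.0e-05). Of 9 partners of MGA in PRC1.6, 1 was higher and 3 lower in OCI-Ly1, beside 1 higher and 7 lower in TMD8, where the median was -0.36. On log2(TPM + 1) 4 were higher and 1 lower in OCI-Ly1 and 0 higher in TMD8, and 3 were higher in OCI-Ly1 with library size as the only scaling. CBX3, a heterochromatin protein, went down from 617 ± 22.6 to 482 ± 26.5 CPM in OCI-Ly1, and in TMD8 from 198 ± 8.97 to 114 ± 3.84, around an MGA that was not called.

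Of 18 genes that govern MYC protein turnover, 6 were higher and 5 lower in OCI-Ly1, beside 4 higher and 9 lower in TMD8. The OCI-Ly1 counts were near the shares of all genes, 27.7% higher and 25.9% lower; those of TMD8 stood beside 29.9% and 30.7%, and 1 was higher there on log2(TPM + 1). AURKA and PLK1, mitotic kinases that also stabilise MYC proteins, had the largest falls of the list in both lines. PLK1 went down from 102 ± 6.9 to 37.1 ± 1.89 CPM in OCI-Ly1 (-1.46 with SE 0.07, edgeR adjusted p = 4.0e-12) and from 193 ± 14 to 25.1 ± 1 in TMD8 (-2.93 with SE 0.09, edgeR adjusted p = 1.8e-13). FBXW7, the ubiquitin-ligase subunit that marks MYC for degradation, rose in both lines, from 89.3 ± 9.54 to 112 ± 3.74 CPM in OCI-Ly1 (0.33, edgeR adjusted p = 6.0e-04) and from 64.9 ± 4.11 to 81.6 ± 2.93 in TMD8 (0.33, edgeR adjusted p = 1.0e-04). The difference between lines was 0.029 (edgeR adjusted p = 0.84), and the TMD8 value was 0.095 on log2(TPM + 1) (limma adjusted p = 0.48). MYC protein was not measured here.

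Further relatives of the family were listed as MYCL, MLXIP, MLXIPL, TFAP4, USF1 and USF2. At 500 nM, 1 of 5 tested was higher and 2 lower in OCI-Ly1, beside 1 higher and 3 lower in TMD8, against the same shares of all genes as for the turnover list. The 2 lower in OCI-Ly1 were 0 on log2(TPM + 1), and 1 with library size as the only scaling or without any of the 3 libraries named below for TFAP4. MLXIP, which encodes MondoA, was at 13.7 ± 1.29 and 13.3 ± 1.33 CPM in OCI-Ly1 (-0.04, edgeR adjusted p = 0.77) and fell from 71.9 ± 1.16 to 53.6 ± 1.94 in TMD8 (-0.43, edgeR adjusted p = 1.1e-06). TFAP4, itself a MYC target, fell from 47 ± 0.662 to 26.5 ± 2.25 CPM in TMD8 (-0.83, edgeR adjusted p = 1.6e-08) and from 33.9 ± 2.34 to 29.4 ± 2.68 in OCI-Ly1 (-0.20, edgeR adjusted p = 0.036), the latter not past the threshold when library size alone set the scaling (-0.12), on log2(TPM + 1) (-0.063) or without any of 3 libraries (the second DMSO and the first and the third 500 nM libraries, -0.18 to -0.15). TXNIP, the classic target of MondoA and MLX, rose in both lines while MLX fell. Its libraries held 179, 190.0 and 202 CPM with DMSO and 351, 329 and 336 at 500 nM in OCI-Ly1, and 74.4, 66.2 and 61.7 and 98.5, 101 and 104 in TMD8. The rises were 0.83 (SE 0.05, edgeR adjusted p = 4.1e-10) and 0.59 (SE 0.06, edgeR adjusted p = 1.2e-07), the latter 0.20 on log2(TPM + 1) (limma adjusted p = 0.14). ARRDC4, the other MondoA target listed, had at most 2 counts in any library.

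Genes whose pattern was most like that of MYC were ranked by Pearson's r with MYC over the 18 libraries, each line centred on its own mean, among 10289 genes. The 5 highest were AIMP2 (r = 0.982), HSPA9 (0.976), THAP4 (0.974), CKS1B (0.973) and RAB5C (0.971). These coefficients describe points that share libraries and dose groups. AIMP2, a scaffold of the multi-tRNA synthetase complex, went from 37.3 ± 2.07 to 48 ± 1.69 CPM in OCI-Ly1, and in TMD8 from 40.6 ± 4.33 to 18.7 ± 1.81 at 500 nM. CKS1B, a cyclin-dependent kinase subunit, went from 99.3 ± 4.06 to 130.0 ± 2 and from 65.3 ± 2.01 to 35.8 ± 2.7, and HSPA9, the mitochondrial HSP70, from 748 ± 19.4 to 890.0 ± 42.4 and from 665 ± 31.3 to 435 ± 6.31. Of the members, MAX had the highest r with MYC (0.724), at rank 1726 of the 10289 genes. MXD4 had the lowest (-0.922), at rank 10240. The other members were MXD3 at -0.73, MNT at -0.651, MLX at 0.559, MGA at 0.284, MXD1 at -0.288 and MXI1 at -0.0573. All these coefficients use the MYC values that chose the network, so they are a description only.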

How the data were processed

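The authors deposited, for each line, a table of estimated counts and a table of TPM (transcripts per 1000000); per the submitters' processing notes kallisto 0.46.0, R 4.3.1, DESeq2 1.40.2 and the build hg19 were named. The step from transcripts to genes is not given in the sources used here. The deposited estimated counts were rounded to whole numbers and tested with edgeR 4.0.16 (R 4.3.3): TMM scaling, edgeR's low-count filter by group, and the quasi-likelihood test. The 9 libraries of a line were fitted together, and the difference between lines was the change in OCI-Ly1 minus that in TMD8 in a fit of all 18 libraries. P-values were adjusted over all tested genes by the Benjamini-Hochberg method and called under 0.05. The deposited TPM values served for levels within a library and for limma 3.58.1 alternatives with pseudocounts of 1 and 0.1. The members and lists were chosen with earlier results of these data known. Of each further list, at most 2 called genes with the largest rise and 2 with the largest fall at 500 nM in each line were eligible to be named, if the higher group averaged at least 5 CPM and every library compared had more than 3 counts; TXNIP and ARRDC4 were always eligible. Promoter sequences are RefSeq's on GRCh38.p14, used for the sequence alone. No 2 libraries of a group agreed within sampling noise, and all were kept. The scripts were tested on simulated data.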

Additional observations from a re-analysis of the deposited data

Results flagged for a closer look

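The values below subtract the log2 change against DMSO of TMD8 from that of OCI-Ly1 and are listed because the test of this difference was passed. At 150 nM they were -0.42 for MXD1, -0.46 for MXD3, -0.53 for MXD4 and 0.40 for MLX. At 500 nM they were 0.60 for MAX, -0.71 for MXD3, -1.19 for MXD4, 0.37 for MXI1, -0.44 for MNT and 0.24 for MLX. MYC differed by 1.53 at 500 nM, and this difference was not tested because it chose the network. All 3 libraries at 500 nM lay above the DMSO range in OCI-Ly1 and below it in TMD8. PVT1 differed by -0.83. Among the MYC-induced targets LDHA differed by 0.32, HSPE1 by 0.33, SHMT2 by 0.91, TFRC by 0.22 and SLC19A1 by 1.4. The TFRC difference was 0.20 without the first 500 nM library of OCI-Ly1 (edgeR adjusted p = 0.055). Among the MYC-repressed genes BTG2 differed by -0.86, CDKN2C by -0.66, CDKN1A by 1.6, KLF6 by 0.54, FTH1 by 0.99 and GADD45A by -2.91. The CDKN2C difference was -0.20 on log2(TPM + 1) (limma adjusted p = 0.21). TXNIP, a target of MondoA and MLX, differed by 0.28. The cause of these differences was not tested.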

How the results depend on the processing

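The alternatives were other size factors, no low-count filter, DESeq2, 3 TPM scales, only the groups compared, a replicate block and leaving out each library. Of 36 calls of members, 16 were lost on each of log2(TPM + 1) and log2(TPM + 0.1), 4 on the centred scale, 2 with library size only, 1 with DESeq2 and 0 under the other settings for all libraries. Members called numbered 2 of 8 on both log2(TPM + 1) and log2(TPM + 0.1) in TMD8 at 150 nM, in the step from 150 nM to 500 nM in TMD8 and in the line difference at 150 nM. Leaving out libraries gave 3 to 5, 2 to 6 and 2 to 5 there. Of the MYC-induced targets 22 were lower in OCI-Ly1 at 500 nM on both TPM scales. For all genes at 150 nM in OCI-Ly1, 139 were called, but 323 with no filter, 242 with DESeq2, 81 with only the groups compared, and 61, 50 and 74 on log2(TPM + 1), centred and log2(TPM + 0.1); leaving out libraries gave 65 to 339. Of the genes called at 500 nM, 51.6% were higher in OCI-Ly1 (64% with library size only, 71.9% on log2(TPM + 1), 32.3% centred) and 49.3% in TMD8 (59.4%, 18.8% and 48.3%).

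Called values that changed sign did so on log2(TPM + 1) and log2(TPM + 0.1): MXI1 in TMD8 at 500 nM (-0.038 and -0.044), the MNT line difference at 500 nM (0.043 and 0.061), and in TMD8 at 500 nM BCL6 (-0.0063 and -0.0062), CDKN2C (-0.057 and -0.062), CREBBP (-0.15 and -0.16) and TFRC (-0.042 and -0.042). The cause was not tested. The rest were values near 0 that had passed no test. On those 2 scales these were MGA in OCI-Ly1 at 150 nM (0.02 and 0.021), MNT in TMD8 from 150 nM to 500 nM (-0.047 and -0.056), MXD3 in that step (-0.16 and -0.19, and -0.0025 centred) and the GADD45B line difference (0.0076 and 0.21). With library size only, and on those 2 scales, MGA in OCI-Ly1 was 0.033, 0.079 and 0.081 at 500 nM and 0.04, 0.059 and 0.061 from 150 nM to 500 nM, and MNT was 0.021, 0.065 and 0.087 and 0.075, 0.086 and 0.11. With library size only, MGA in TMD8 was 0.04 at 150 nM and 0.065 at 500 nM, the MGA line differences -0.046 at 150 nM and -0.032 at 500 nM (-0.023 centred), MXI1 in TMD8 at 150 nM 0.015 and SHMT2 in TMD8 0.057. MGA in TMD8 from 150 nM to 500 nM was -0.022 with no filter, -0.18 and -0.21 on the 2 TPM scales and -0.022 centred. KLF6 and SLC19A1 in OCI-Ly1 were -0.016 and -0.042 centred.

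Leaving out libraries, other uncalled values changed sign within these ranges: in OCI-Ly1 at 150 nM MXD4 from -0.034 to 0.11 and MNT from -0.16 to 0.053 and MGA from -0.039 to 0.011 and MLX from -0.037 to 0.065, in OCI-Ly1 at 500 nM MNT from -0.17 to 0.0056, in OCI-Ly1 from 150 nM to 500 nM MNT from -0.12 to 0.066, in TMD8 at 150 nM MGA from -0.077 to 0.0075, in TMD8 at 500 nM MGA from -0.06 to 0.0013, in TMD8 from 150 nM to 500 nM MXD3 from -0.014 to 0.11 and MGA from -0.024 to 0.029, for the line difference at 500 nM MGA from -0.031 to 0.04 and GADD45B from -0.37 to 0.032.

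The replicate numbers did not pair the libraries. Same-numbered libraries of different groups correlated, in their deviations from the group means, by -0.0462 to 0.146 in OCI-Ly1 and -0.0545 to 0.141 in TMD8, over 0.1 in 2 of 9 pairs of each line, and a library correlated best with its own number in 5 of 18 and 6 of 18 cases. With the replicate block 5 of 8 members were called in OCI-Ly1 and 7 of 8 in TMD8 at 500 nM, as without it, and no member's call changed. Of the MGA partners 3 were higher in OCI-Ly1 with the block, against 1 without it. Depth limits MYCN and ARRDC4, which lay at or under 3 counts.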
